A study of Mus musculus with 6 samples.

Results

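Trace amine-associated receptors (Taar) are a small family of olfactory receptors that lie side by side on mouse chromosome 10. Of 22029 genes in an embryonic table and 22028 in a postnatal one, 10 Taar genes, listed by symbol, were followed: Taar2, Taar3, Taar4, Taar5, Taar6, Taar7a, Taar7b, Taar7d, Taar7e and Taar9. The list was drawn up with earlier results of these data known. All 10 were in both tables, which also held 5 other Taar genes and 1119 (embryonic) or 1118 (postnatal) odorant receptor genes of the Olfr family. Polyadenylated RNA of mouse olfactory epithelium was sequenced, with 1 library for each of 6 genotypes on a mixed background, mainly C57/B6. In late embryos (E18.5) the libraries were G9a/GLP dKO (both genes knocked out), G9a KO GLP het (G9a knocked out, GLP heterozygous), G9a KO and G9a het, so the embryonic libraries include no wild type. At postnatal day 21 they were Suv420h dKO, in which both Suv420h1 and Suv420h2 are knocked out, and Suv420h dhet, heterozygous for both. The labels state neither the deleted part, a Cre driver nor the number of animals pooled. G9a (Ehmt2) and GLP (Ehmt1) place methyl groups on lysine 9 of histone H3, and the Suv420h enzymes on lysine 20 of histone H4; by its title, the study concerns such enzymes in the expression of olfactory receptors.

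An olfactory neuron that expresses a Taar gene does so in place of an Olfr gene, and sits mostly in the dorsal part of the epithelium. The receptors detect volatile amines such as those of urine and decaying matter, and are thought to signal through the same G protein (Gnal), adenylyl cyclase (Adcy3) and cyclic nucleotide-gated channel (Cnga2) as Olfr receptors. An older branch, Taar2 to Taar4 in this set, is associated with primary amines: Taar3 responds to isoamylamine and Taar4 to phenylethylamine, an odour of carnivore urine. The younger branch, Taar5 to Taar9, is associated with tertiary amines, with Taar5 tuned to trimethylamine, an odour of male mouse urine.

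The genes are close copies to different degrees, which limits how well reads can be told apart. In the deposited mm9 coordinates the 10 genes run from 23658378 (start of Taar2) to 23829340 (end of Taar9) on chromosome 10. Each spans about 1 kb, except Taar2, which spans 3012 bp with a transcript of 1020 bases. Coding sequences of GENCODE M21 were compared for 9 of the 10, all but Taar4. The 6 pairs of Taar7 members were 93.1% to 95% identical over 1077 bases, with unbroken shared runs of 102 to 182 bases, while the 30 other pairs were 55.0% to 70.9% identical. Bases 1 to 60 of the coding sequence were picked as the 60-base stretch with the most varying positions. They hold 26 of the 123 positions that vary among the 4, and are printed to show how Taar7a stands apart there (GRCm38, chromosome 10). Capitals mark the varying positions. Taar7a differs from the others at 22 to 25 of the 60 bases and Taar7b from Taar7d and Taar7e at 5 and 6, while Taar7d and Taar7e differ at 1.
Taar7a (23993422 to 23993481, minus strand): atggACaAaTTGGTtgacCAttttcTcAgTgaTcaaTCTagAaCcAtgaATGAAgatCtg
Taar7b (23999939 to 23999998, plus strand): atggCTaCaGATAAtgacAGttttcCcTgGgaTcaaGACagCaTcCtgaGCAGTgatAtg
Taar7d (24027222 to 24027281, plus strand): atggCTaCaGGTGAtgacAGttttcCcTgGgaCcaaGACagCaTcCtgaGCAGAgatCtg
Taar7e (24037614 to 24037673, plus strand): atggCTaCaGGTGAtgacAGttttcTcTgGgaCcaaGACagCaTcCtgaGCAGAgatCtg
Outside the members, only Taar7f and Taar8b were compared. Taar7e was 95.4% identical to Taar7f, with a shared run of 256 bases, and Taar6 was 79.0% identical to Taar8b. Values of single Taar7 genes are therefore uncertain, and their sum is given beside them.

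The upstream sequences of the Taar7 members are less alike than their coding sequences. Taar7a stood furthest from the other Taar7 members in both. The nearest pair differed: it was Taar7b and Taar7e over the whole coding sequence, and Taar7d and Taar7e in the upstream windows. RefSeq windows of 300 bases were found for 9 of the 10 members (all but Taar4). In each, the annotated start is the start codon, so a window holds 250 bases before it and 50 bases from it on. Those 50 bases are coding sequence except in Taar2. There they meet a stop codon in frame and so run past the first coding exon. Windows of Taar7d and Taar7e were 86.7% identical and those of Taar7b and Taar7d 72.3%. The Taar7a window was 55.3% to 58.0% identical to those of the other Taar7 members, no closer than the windows of Taar3 and Taar7e (58.3%). The windows of Taar7a and Taar7e are printed because these 2 genes stood at similar levels in the G9a het library and far apart in the dKO. That of Taar7d is printed as the nearest to Taar7e. Capitals mark the longest run, of 18 bases, that Taar7b, Taar7d and Taar7e share and Taar7a lacks; it overlaps the start codon.
Taar7a (GRCm38, chr10:23993432-23993731, minus strand): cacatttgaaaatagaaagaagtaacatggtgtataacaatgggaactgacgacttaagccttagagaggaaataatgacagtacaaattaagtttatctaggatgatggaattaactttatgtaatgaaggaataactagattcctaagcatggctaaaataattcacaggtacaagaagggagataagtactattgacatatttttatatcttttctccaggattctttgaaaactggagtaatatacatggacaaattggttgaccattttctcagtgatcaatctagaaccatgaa
Taar7d (GRCm38, chr10:24026972-24027271, plus strand): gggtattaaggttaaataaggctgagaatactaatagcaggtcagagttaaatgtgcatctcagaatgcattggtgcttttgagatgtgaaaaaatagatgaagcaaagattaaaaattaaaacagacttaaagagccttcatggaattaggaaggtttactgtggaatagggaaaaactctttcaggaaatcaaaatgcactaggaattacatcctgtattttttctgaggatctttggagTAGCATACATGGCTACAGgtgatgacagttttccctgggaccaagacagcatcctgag
Taar7e (GRCm38, chr10:24037364-24037663, plus strand): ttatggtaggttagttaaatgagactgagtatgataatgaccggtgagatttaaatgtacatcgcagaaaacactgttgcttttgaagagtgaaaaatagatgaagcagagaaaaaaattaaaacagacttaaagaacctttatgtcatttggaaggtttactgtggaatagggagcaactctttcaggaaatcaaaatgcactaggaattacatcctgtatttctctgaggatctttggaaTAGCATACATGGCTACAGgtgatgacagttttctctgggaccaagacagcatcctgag
As a look for known motifs, TAATTA and CCCNNGGG were searched, each reading the same on both strands. TAATTA, a core bound by homeodomain proteins such as Lhx2, was in 0 of the 9 member windows and in 5.29% of 32851 windows of the reference. CCCNNGGG, a core bound by Ebf proteins, was in 0 of the 9 and in 13.7% of the reference windows. The reference windows lie at annotated starts, which in other genes need not be the start codon, so the shares may be of unlike stretches. These counts speak only of the letters in these windows, and no result is read from 0 of 9.

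Values are FPKM, fragments scaled to transcript length and to the mapped fragments of the library, as deposited, and with 1 library per genotype no test between genotypes exists. Differences below are between libraries. The total depth is unknown. In the postnatal libraries low receptor values fell in regular steps, so fragments could be estimated; over the 10 members these came to 248 in Suv420h dKO and 224 in Suv420h dhet. Intervals from them cover counting error only. The embryonic steps were too blurred for this, and the authors' own confidence interval of each embryonic FPKM is given instead. A listed 0 with an interval of 0 to 0 can be a failed estimate. Between 0 and 9 genes per embryonic library were at 0 with 10 FPKM or more in all others. Counted over single libraries, fewer neurons of a kind and less RNA per neuron cannot be told apart. The targeted genes stood at 30.4, 32.5, 30.2 and 24.5 FPKM (Ehmt2) in dKO, KO GLP het, KO and het, and at 16.0, 15.8, 20.8 and 17.3 (Ehmt1). Suv420h1 was at 30.6 FPKM in Suv420h dKO and 31.0 in dhet, and Suv420h2 at 7.35 and 7.92. Gene-level values do not check the labels. Libraries also differed in Xist, an RNA of the inactive X chromosome, which was at 208 and 140 FPKM in dKO and KO, and at 0.272 and 0.242 in KO GLP het and het. Ddx3y, a gene of the Y chromosome, was at 0 and 0.0489 FPKM in dKO and KO, and at 29.2 and 33.6 in KO GLP het and het. By these genes, dKO and KO differ from het in sex as well as genotype. The part of sex in the results was not tested.

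At E18.5 the family stood lower in the 3 libraries labelled as lacking G9a than in G9a het. Summed FPKM of the 10 members was 2.50 in G9a/GLP dKO, 3.73 in KO GLP het and 1.91 in KO, against 5.39 in G9a het. The ratios to G9a het were 0.463, 0.692 and 0.354, and the 3 comparisons share that library. Markers of mature olfactory neurons stood lower in the same libraries, with 7 of 19 at least 2-fold lower in the dKO, 9 in KO GLP het and 5 in KO, on log2(FPKM + 1). On that scale, 460 of 15301 genes at 1 FPKM or more were 2-fold lower in the dKO. In KO GLP het 697 of 15233 were, and in KO 230 of 15173. Kcnk9, 1 of the 19, was under 1 FPKM in all 6 libraries. Over the 18 markers of the list above 0 in all 4, the ratio of geometric means was 0.5 in the dKO, 0.405 in KO GLP het and 0.571 in KO. Divided by it, the Taar ratio became 0.926, 1.71 and 0.621, so the KO GLP het value crossed 1. Summed Olfr FPKM had ratios of 0.701, 0.430 and 0.492. Taar members held 0.561% of all Taar and Olfr FPKM in the dKO, 1.35% in KO GLP het, 0.611% in KO and 0.847% in het. Relative to Olfr genes, the KO GLP het library thus held the most Taar RNA and the dKO the least. The Olfr sum of the dKO rests on few genes: the effective number of Olfr genes, by the evenness of their shares, was 39.2 in the dKO, 213 in KO GLP het and 274 in KO, against 641 in het.

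**Figure D1:**
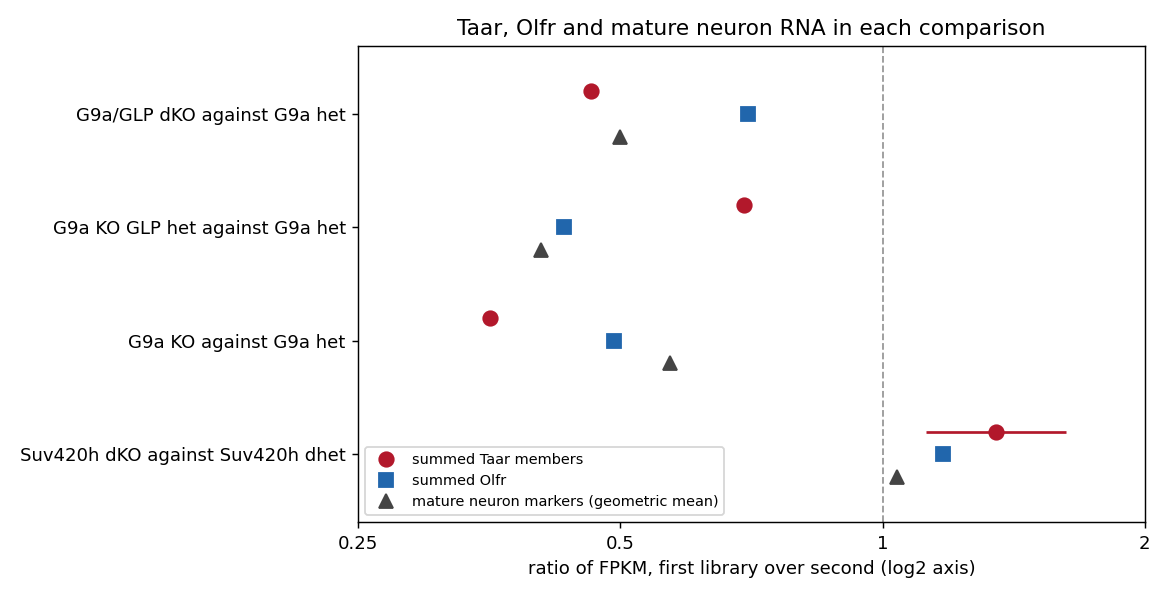
Ratio of FPKM between the first and second library of each comparison (log2 axis) for the sum of the 10 Taar members (circles), the sum of Olfr genes (squares) and the geometric mean of mature neuron markers (triangles); the line is the counting interval, available for the postnatal pair. All 9 embryonic points lie below 1, with Taar at 0.463, 0.692 and 0.354, and all 3 postnatal points above 1.

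The libraries also differed in which receptors made up this RNA. The G9a het library had all 10 members above 0, with a median of 0.584 FPKM and 5 of 10 at 0.5 FPKM or more, from 0.947 for Taar7e down to 0.0531 for Taar7b. Members at 0 numbered 4 of 10 in the dKO, 4 in KO GLP het and 1 in KO, against 0 in het. Of Olfr genes, 82.4% were at 0 in the dKO, 67.7% in KO GLP het and 44.6% in KO, against 14.1% in het. At 0.5 FPKM or more there were 2 of 10 in each of these libraries. Olfr genes at that level made up 7.95% of the 1119 in the dKO, 14.9% in KO GLP het, 13.8% in KO and 38.2% in het. The effective number of members, computed in the same way as exp(Shannon entropy), was 3.93 in the dKO, 4.36 in KO GLP het, 6.83 in KO and 8.43 in het. Taar7a and Taar6 together held 75.7% of member FPKM in the dKO and 68.1% in KO GLP het. In KO the highest pair was Taar4 and Taar2, with 54.4%, and in het the highest pair, Taar7e and Taar7a, held 33.5%.

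**Figure D2:**
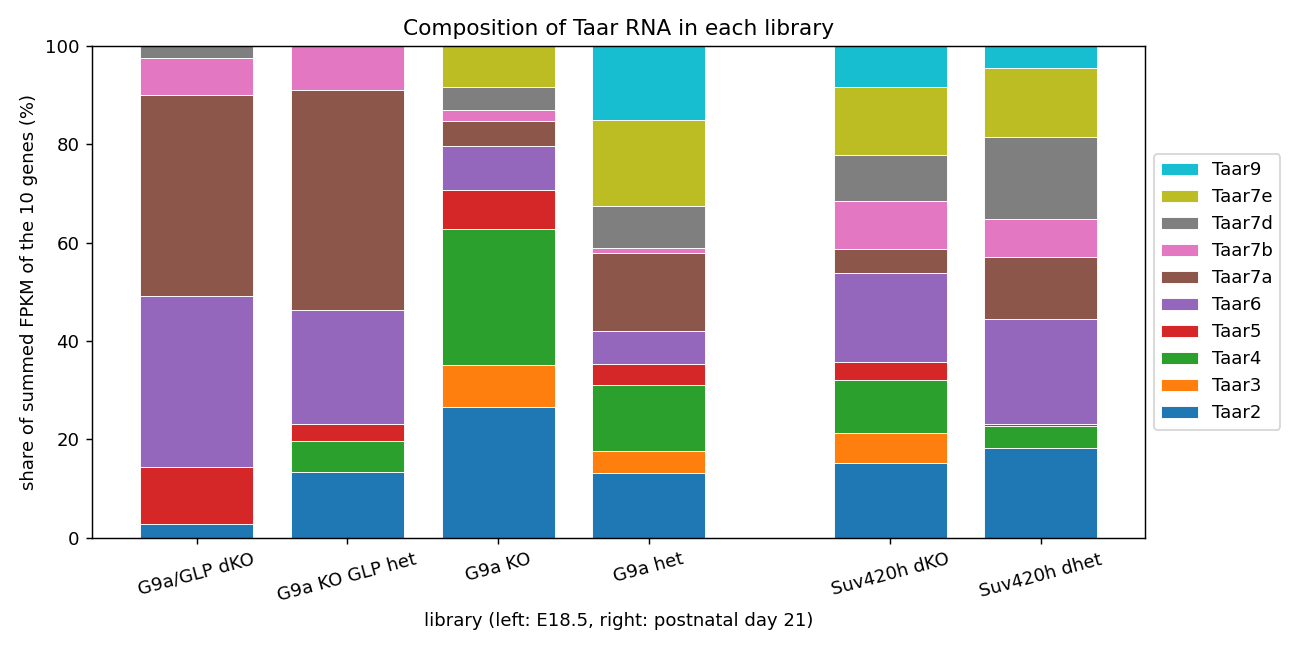
Share of each gene (%) in the summed FPKM of the 10 Taar members, 1 bar per library, E18.5 on the left and postnatal day 21 on the right. Taar7a and Taar6 fill 75.7% of the G9a/GLP dKO bar and 68.1% of the KO GLP het bar, and Taar9 appears in 1 embryonic bar, that of G9a het.

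The primary amine branch had its lowest embryonic level in the G9a/GLP dKO library. Its 3 members summed to 0.0705 FPKM in the dKO, 0.735 in KO GLP het and 1.2 in KO, against 1.67 in het. Taar2 was at 0.0705 FPKM in the dKO, 0.497 in KO GLP het and 0.508 in KO, against 0.705 in het. Only the dKO value stood apart from the other 3, and even there the authors' interval, 0 to 0.163, overlapped that of het, 0.0408 to 1.35. Taar4, the phenylethylamine receptor, was listed at 0 in the dKO and stood at 0.238 FPKM in KO GLP het and 0.531 in KO, against 0.717 in het. Its het interval was 0.0398 to 1.35, above the 0 to 0 of the dKO. Taar3, the isoamylamine receptor, was listed at 0 in both the dKO and KO GLP het, at 0.162 FPKM in KO and at 0.251 in het. In the het library Taar3 already lay below 670 of the 1119 Olfr genes.

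Members of the tertiary amine branch differed from G9a het in either direction. Its 7 members summed to 2.43 FPKM in the dKO, 3.0 in KO GLP het and 0.710 in KO, against 3.72 in het. Taar6 was at 0.869 FPKM in the dKO, 0.868 in KO GLP het and 0.171 in KO, against 0.354 in het. Its ratio to het was 2.45 in both the dKO and KO GLP het, while the authors' intervals overlapped (0.0801 to 1.64 in the dKO and 0 to 0.681 in het). Taar5, the trimethylamine receptor, was at 0.288 FPKM in the dKO, 0.126 in KO GLP het and 0.149 in KO, against 0.237 in het, with overlapping intervals throughout. Taar9 was listed at 0 in the dKO, KO GLP het and KO libraries and stood at 0.807 FPKM in het, with an interval of 0.0794 to 1.51. All 3 lay below the het interval, each with an interval of 0 to 0.

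Within the Taar7 group, Taar7a and Taar7e took opposite places in the dKO and KO GLP het libraries, while both stood lower than het in KO. Taar7a was at 1.02 FPKM in the dKO, 1.67 in KO GLP het and 0.0974 in KO, against 0.860 in het. The authors' interval of Taar7a in the dKO, 0.116 to 1.89, overlapped that of het, 0.0772 to 1.62. Taar7a was the highest member in the dKO and KO GLP het, where 53 and 32 Olfr genes lay above it, against 456 in KO and 246 in het. Taar7e, the highest member of the het library at 0.947 FPKM, was listed at 0 in the dKO and KO GLP het and stood at 0.16 in KO. Taar7d followed the order of Taar7e, with 0.0606 FPKM in the dKO, 0 in KO GLP het and 0.0874 in KO, against 0.463 in het. Taar7b was at 0.188 FPKM in the dKO, 0.331 in KO GLP het and 0.0456 in KO, against 0.0531 in het. The sum of the 4 was 1.27 FPKM in the dKO, 2.01 in KO GLP het and 0.390 in KO, against 2.32 in het, so KO held the least Taar7 RNA. These genes share long runs of sequence, and how reads were divided among them was not tested.

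**Figure D3:**
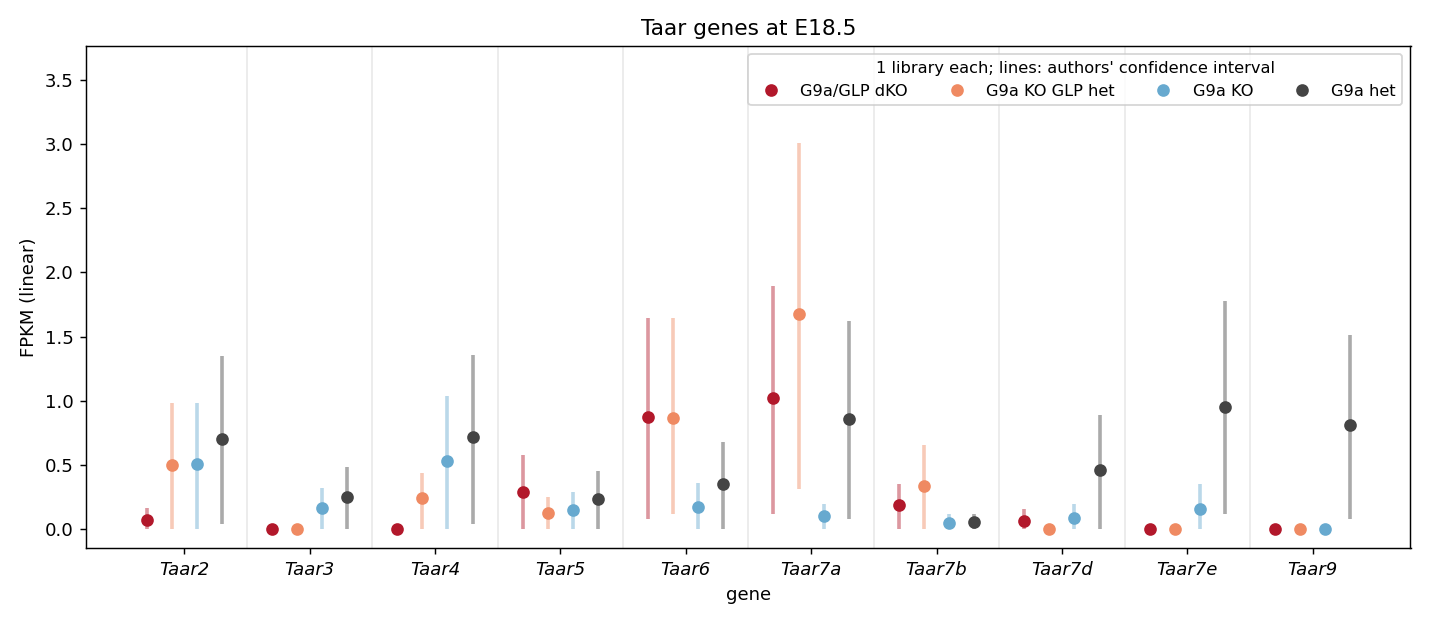
FPKM of each Taar member (linear axis) in the 4 embryonic libraries, 1 point per library with the authors' confidence interval as a line. Taar9 is above 0 in G9a het alone (0.807 FPKM), while Taar7a and Taar6 are highest in the G9a/GLP dKO and G9a KO GLP het libraries.

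Counts of members past 2-fold were read against all genes and against Olfr genes, on log2(FPKM + 0.1) with 0.5 FPKM or more in either library. In the dKO against het, 6 of the 10 members passed that minimum. Of these, 1 (Taar6) was at least 2-fold higher and 4 (Taar2, Taar4, Taar7e and Taar9) at least 2-fold lower. Over all genes 5% were higher and 6.6% lower, and over Olfr genes 10.5% higher and 82.8% lower. A gene can pass the minimum only where it is high, so the same count was made for all 10 members with no minimum. It gave 1 higher and 6 lower, with a median log2 ratio of -1.81; among 976 Olfr genes above 0 in either library 6.66% were higher and 77.3% lower, with a median of -2.09. The share of Taar members that were lower was below that of Olfr genes and above that of all genes (9.66% lower, 5.74% higher). The authors' intervals lay apart for 3 of the 6 members at the minimum, Taar4, Taar7e and Taar9, each lower and listed at 0 in the dKO. Intervals lay apart below for 53.8% of Olfr genes and 2.96% of all genes at the minimum. None lay apart above, against 4.3% of Olfr genes and 1.2% of all genes.

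The other embryonic pairs gave fewer members apart. In KO GLP het against het, 6 members passed the minimum, 1 (Taar6) at least 2-fold higher and 3 (Taar4, Taar7e and Taar9) lower. The background was 4.22% higher and 9.18% lower over all genes, and 10% and 66% over Olfr genes. With no minimum, 2 of the 10 were higher and 5 lower, against 5% and 12.1% of all genes and 7.65% and 65.1% of Olfr genes. At the minimum, the authors' intervals lay apart below for 2 of 6 members (Taar7e and Taar9), against 3.92% of all genes and 35.2% of Olfr genes. They lay apart above for 0, against 1.2% and 1.46%. In KO against het all 10 members stood lower. At the minimum there were 5, and 3 of them (Taar7a, Taar7e and Taar9) were at least 2-fold lower, against 4.54% of all genes and 65.6% of Olfr genes. None was 2-fold higher in KO, against 2.8% of all genes and 9.34% of Olfr genes. With no minimum, 0 of the 10 were 2-fold higher and 4 lower, against 4.06% and 6.67% of all genes and 8.48% and 58.7% of Olfr genes. At the minimum, the authors' intervals lay apart below for 1 of 5 members (Taar9), against 1.26% of all genes and 19.3% of Olfr genes, and apart above for 0, against 0.52% and 0.849%. Between the libraries labelled as lacking G9a, the dKO summed to 1.31 times the KO and 0.669 times the KO GLP het library. The dKO was 3.42 times as high as KO in the tertiary amine branch and 0.0587 times as high in the primary amine branch, where Taar3 and Taar4 were listed at 0 in the dKO. The authors' intervals of the dKO and KO overlapped for all 10 members. Every KO interval of a member began at 0, so no dKO interval could lie below it. At the minimum, intervals lay apart above for 0.789% of all genes and 8.9% of Olfr genes. They lay apart below for 0.925% and 27.7%.

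Other receptors and genes of the same neurons are given for setting. Of the 5 Taar genes outside the chosen 10, Taar1, which is known from brain rather than nose, was listed at 0 in all 6 libraries. Taar8a, Taar8b and Taar8c were listed at 0 in all 4 embryonic libraries. Taar7f was at 0 in the dKO, 0.443 FPKM in KO GLP het and 0.180 in KO, against 0.105 in het. Of 18 transduction genes measured, 7 were at least 2-fold lower in the dKO, 6 in KO GLP het and 5 in KO, and none higher, on log2(FPKM + 1). Most of these genes, Omp and Gnal among them, are also in the mature neuron list, so these counts are not separate from those given for it. Gnal was at 13.7 FPKM in the dKO, 12.2 in KO GLP het and 18.3 in KO, against 43.5 in het. Omp, a marker of mature olfactory neurons, was at 24.0, 21.2 and 36.0 FPKM in the same libraries, against 78.6 in het. Of 17 genes of receptor choice and trafficking, 0 were 2-fold apart in the dKO and in KO, and 1 was lower in KO GLP het. Over all genes at 1 FPKM or more, 336 of 15301 were higher and 460 lower in the dKO. The counts higher and lower were 329 and 697 of 15233 in KO GLP het, and 162 and 230 of 15173 in KO.

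Dorsal epithelium, where most Taar neurons lie, was followed by a short marker list. Nqo1, an enzyme of dorsal neurons, was at 16.8 FPKM in the dKO, 22.1 in KO GLP het and 18.9 in KO, against 31.7 in het. Acsm4, another dorsal marker, was at 19.7, 18.7 and 22.4 FPKM, against 37.8 in het. The other 2 dorsal genes, which encode an axon guidance receptor and a guidance cue, did not share this order. Robo2 was at 19.1 FPKM in the dKO, 16.1 in KO GLP het and 16.7 in KO, against 18.0 in het. Sema3f was at 21.3, 22.1 and 19.2 FPKM in these libraries, against 17.4 in het. Among ventral markers Ncam2 was at 6.82 FPKM in the dKO, 4.43 in KO GLP het and 5.45 in KO, against 7.48 in het, while Nrp2 and Plxna3 stood above het in all 3. Median log2 ratios were -0.40, -0.32 and -0.41 for the dorsal list and 0.19, 0.00 and 0.02 for the ventral list. Of the 4 dorsal and 3 ventral genes, 0 were 2-fold apart in any embryonic pair. Their part in the Taar values was not tested. Markers of immature neurons had a median log2 ratio of -0.05 in the dKO, -0.99 in KO GLP het and 0.01 in KO, and neuronal progenitor markers of 0.09, -0.07 and 0.06. Sustentacular, or supporting, cell markers had medians of -1.06, -0.73 and -0.50; of 8, 5 were at least 2-fold lower in the dKO, 2 in KO GLP het (with 1 higher) and 1 in KO. Of 8 chemoreceptor and related genes outside the Olfr and Taar families, 5 were under 1 FPKM in every library and could not reach 2-fold on that scale. The channel gene Trpm5 was at 4.0 FPKM in the dKO, 4.04 in KO GLP het and 2.96 in KO, against 2.12 in het.

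Genes beside the cluster were read for a shift of the whole region. Within 500 kb, Stx7, a vesicle fusion protein, was at 43.9 FPKM in the dKO, 31.9 in KO GLP het and 44.2 in KO, against 48.2 in het. Moxd1, a monooxygenase-like protein, was at 10.8, 13.7 and 11 FPKM, against 14.1 in het. Of 6 neighbours at the minimum, 2 were 2-fold apart in the dKO, both lower. These were Ctgf, a secreted matrix protein, at 27.0 FPKM in the dKO against 59.2 in het, and the ribosomal gene Rps12 at 0.187 in the dKO against 0.599 in het. Rps12 reached 242 FPKM in KO GLP het, a spread that makes its embryonic values doubtful. The profile of summed Taar FPKM over the 4 embryonic libraries was most like that of Klf15 among 14657 genes other than receptors, with a root mean square difference of 0.054 on the centred log2 scale. Klf15 was at 1.73 FPKM in the dKO, 2.76 in KO GLP het and 1.42 in KO, against 4.20 in het. Fbp1, Slc7a3, Car9 and Nmb came next. Of 68 Olfr genes at 1 FPKM or more on average, the nearest were Olfr533, Olfr643 and Olfr644, with differences of 0.37 to 0.52. With 4 libraries, likeness of this kind is a description only.

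At postnatal day 21 the family stood higher in Suv420h dKO than in Suv420h dhet. The tables were made separately, so levels are not compared between the ages. Summed FPKM of the 10 members was 17.9 in Suv420h dKO and 13.3 in Suv420h dhet. The ratio was 1.35, with a 95% interval of 1.12 to 1.62 from the estimated fragments (exact conditional binomial, counting error only). The ratio was 1.17 for summed Olfr FPKM and 1.04 for mature neuron markers. Members held 0.644% of Taar and Olfr FPKM in the dKO and 0.561% in the dhet. All 10 members were at 0.5 FPKM or more in the dKO and 8 of 10 in the dhet, against 73.6% and 73.4% of Olfr genes. The effective number of members was 9.08 in the dKO and 7.20 in the dhet.

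The 2 highest members and the Taar7 genes had ratios whose counting intervals included 1. Taar6, the highest in both, was at 3.24 FPKM in the dKO and 2.84 in the dhet, a ratio of 1.14 with a counting interval of 0.738 to 1.76. Taar2, the next, was at 2.72 FPKM in the dKO and 2.42 in the dhet, a ratio of 1.12 (0.697 to 1.81). Taar7e was at 2.48 FPKM in the dKO and 1.88 in the dhet, and Taar7b at 1.73 in the dKO and 1.03 in the dhet. Taar7d was at 1.68 FPKM in the dKO and 2.21 in the dhet, and Taar7a at 0.896 in the dKO and 1.67 in the dhet. The counting intervals of all 4 Taar7 ratios included 1, and the sum of the 4 was 6.78 FPKM in the dKO and 6.79 in the dhet. Order among the dhet members was Taar6, Taar2, Taar7d, Taar7e and Taar7a, and among the dKO members Taar6, Taar2, Taar7e, Taar4 and Taar7b.

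The 4 members lowest in the dhet library stood at least 2-fold higher in the dKO; genes picked for a low value in the dhet tend to, so no pattern is read from it. Taar4 was at 1.93 FPKM in the dKO and 0.588 in the dhet, a ratio of 3.28 (1.54 to 7.60). Taar9 was at 1.49 FPKM in the dKO and 0.586 in the dhet, a ratio of 2.55 (1.15 to 6.07). Taar3 was at 1.09 FPKM in the dKO, an estimated 14.8 fragments, and listed at 0 in the dhet, where a count of 0 allows up to 0.182 FPKM (3 fragments). Taar5 was at 0.665 FPKM in the dKO and 0.0608 in the dhet, an estimated 8.9 fragments and 1, a ratio of 10.9 with an interval of 1.51 to 479. Of the 10 members these 4 were past 2-fold higher and none was at least 2-fold lower, against 3.48% higher and 7.13% lower over all genes and 19.3% and 13.3% over Olfr genes. The primary amine branch summed to 5.73 FPKM in the dKO and 3.0 in the dhet, a ratio of 1.91, and the tertiary amine branch to 12.2 and 10.3, a ratio of 1.18.

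The authors' deposited table tests these 2 libraries against each other, which compares libraries and not genotypes. It gave q-values of 0.0973 for Taar3, 0.240 for Taar5, 0.260 for Taar4 and 0.459 for Taar9. None of the 10 members had a q under 0.05 in the authors' deposited table, against 4.13% of all genes and 2.11% of Olfr genes that it tested. Outside the 10, Taar8b was at 2.24 FPKM in the dKO and 0.418 in the dhet, a ratio of 5.35 (2.31 to 14.4), and the authors' deposited table lists a q-value of 0.0869. Taar7f was at 0.804 FPKM in the dKO and 0.183 in the dhet. Taar8a and Taar8c lay between 0.266 and 0.359 FPKM in both libraries, at an estimated 3.9 to 5.9 fragments.

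**Figure D4:**
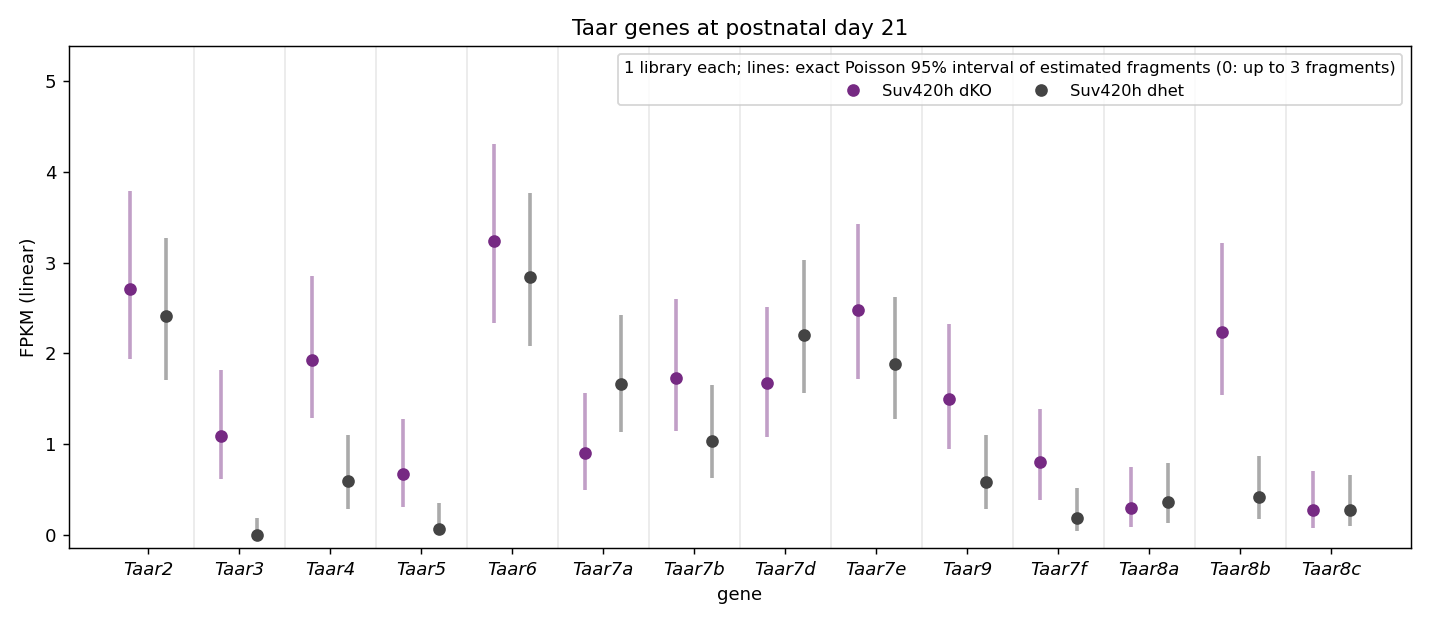
FPKM of the 10 Taar members and of Taar7f, Taar8a, Taar8b and Taar8c (linear axis) in the 2 postnatal libraries, with exact Poisson 95% intervals of the estimated fragments as lines, or up to 3 fragments where a gene is at 0. Taar3, Taar4, Taar5, Taar9 and Taar8b stand higher in Suv420h dKO, while Taar6 and Taar2 are the highest in both libraries.

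Outside the Taar family, 0 genes of the mature neuron, transduction, choice, zone, immature, progenitor and sustentacular lists were 2-fold apart. Over all genes at 1 FPKM or more, 157 of 15078 were 2-fold higher and 330 lower in the dKO on the same scale, log2(FPKM + 1). The transduction genes held Gnal at 387 FPKM in the dKO and 373 in the dhet, and Omp at 1108 and 1124. The dorsal marker Nqo1 was at 85.6 FPKM in the dKO and 67.1 in the dhet, and Acsm4 at 126.5 and 90.3. Robo2 was at 18.0 FPKM in the dKO and 19.0 in the dhet, and Sema3f at 7.57 and 7.36. Of the ventral markers, Ncam2 was at 42.6 FPKM in the dKO and 36.1 in the dhet, Plxna3 at 27.0 and 25, and Nrp2 at 55.4 and 67. Beside the cluster, Stx7 was at 39.2 FPKM in the dKO and 36.2 in the dhet, and Moxd1 at 10.4 and 10.8. Other neighbours stood lower in the dKO: Ctgf was at 31.3 FPKM in the dKO and 52.7 in the dhet, Rps12 at 72.2 and 109.8, and 1110021L09Rik at 7.66 and 11.9. The part of the zone markers and neighbours in the Taar values was not tested.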

How the data were processed

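RNA of olfactory epithelium was compared in 6 libraries, 1 per genotype, grouped by the labels. TopHat, Cufflinks, Cuffdiff and mm9 are named per the submitters' processing notes; for versions, annotation and reads with several matches nothing is stated. The authors deposited FPKM per gene symbol, with confidence bounds in the embryonic table. The level of those bounds is not stated. Per the file headers, the postnatal workbook also holds p-values and q-values of 1 library against 1 library.

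Ratios, sums and counts past 2-fold were computed in Python 3.11.15 with pandas 2.3.3. Receptor counts used log2(FPKM + 0.1) and a minimum of 0.5 FPKM in either library; gene lists used log2(FPKM + 1). Background counts left out short RNAs by symbol (Mir, Snor, Scarna, Rnu and n-R). The worth of 1 fragment was taken from the spacing of FPKM times length among receptors of 900 to 1100 bp. A periodogram scored this at 0.767 and 0.699 in Suv420h dKO and dhet (1 is perfect) and at 0.117 to 0.225 in embryonic libraries, for which it was not used. On simulated postnatal receptor values, 20 of 20 step sizes were recovered within 5%. No molecular identifiers are named, so fragments need not be separate molecules. Start positions were raised by 1 to count from 1.

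The members and lists were chosen with earlier results of these data known. All 10 members, the other Taar genes, cluster neighbours and the neuron and zone lists could be named. So could the 5 genes and 3 Olfr genes of most similar profile. Xist, Ddx3y and the targeted genes were added as checks of the libraries. Windows at annotated starts are from RefSeq (GRCm38.p6) and coding sequences from GENCODE M21. Alternatives varied the scale, minimum, pseudocount, fold, members and the library compared with.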

Additional observations from a re-analysis of the deposited data

How the results depend on the processing

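No paired analysis was possible because each group has 1 library, and no library could be left out for the same reason. Values of single libraries have no replicate error; an embryonic ratio is called moved here past 1.5 times, and the postnatal one outside its counting interval. The summed Taar ratio of dKO to G9a het (0.463) was 0.926 per mature neuron marker and 1.31 with G9a KO in place of G9a het, which turned its direction. That of KO GLP het (0.692) turned to 1.61 per summed Olfr FPKM and 1.71 per mature marker, and was 0.455 without Taar7a. That of KO (0.354) was 0.720 per summed Olfr FPKM and 0.621 per mature marker. That of Suv420h dKO to dhet (1.35) was 1.71 without the Taar7 genes. It was lower at 1.15 per summed Olfr FPKM, 1.30 per mature marker and 1.19 on the TPM scale. Dividing by a fixed factor moves the counting interval along with the ratio. The lower end of the interval, 1.12, is under the Olfr ratio of 1.17, so per summed Olfr FPKM the interval includes 1. On the TPM scale it includes 1 as well. Per mature marker, with a factor of 1.04, it stays above 1. On the TPM scale none of the 4 ratios passed the limits for a moved value.

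Counts of members past 2-fold depend on low values. With a pseudocount of 1 FPKM, or a minimum of 1 FPKM, 0 members were higher and 0 lower in the dKO and KO GLP het, and 0 lower in KO. In G9a het and KO, 0 members reached 1 FPKM, and in the dKO and KO GLP het only Taar7a did. With either setting no member could therefore be 2-fold lower than het, and these counts of 0 lower carry no information. In Suv420h dKO, 1 was higher with that pseudocount. At 4-fold, 0 were higher in the dKO and KO GLP het, and 2 in Suv420h dKO. At 1.5-fold, 2 were higher in KO GLP het and 1 was lower in Suv420h dKO. With no minimum, 2 were higher and 5 lower in KO GLP het. Per mature marker, 3 were higher in each of the dKO and KO GLP het. Of 79 alternative values, 51 stayed on the same side and within these limits. Embryonic levels under 0.2 FPKM are near the low end of receptor values, and the fragments behind them could not be estimated. Of the Olfr values above 0, 10% lay under 0.105, 0.156, 0.0598 and 0.0928 FPKM in dKO, KO GLP het, KO and het.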
